A study of Gallus gallus with 45 samples.

Results

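The genes described here are the 26 Hox and Cdx genes of the chick that were measured in dissected midbrain-level neural crest tissue, taken by their symbols alone from 18525 genes that passed the filter on low counts (over 5 reads in some library). Of the 23 Hox genes, 10 belong to the HoxA cluster (among them HOXA2, HOXA3, HOXA4, HOXA5, HOXA6, HOXA7, HOXA9, HOXA11 and HOXA13), 7 to HoxB (HOXB1, HOXB2, HOXB3, HOXB4, HOXB5, HOXB7 and HOXB8), 3 to HoxC (HOXC6, HOXC8 and HOXC10) and 3 to HoxD (HOXD3, HOXD4 and HOXD13). By paralog number, 7 are anterior Hox genes (1 to 3), 11 are central (4 to 8) and 5 are posterior (9 to 13). The 3 Cdx genes are CDX1, CDX2 and CDX4.

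Hox genes encode homeodomain transcription factors that lie in clusters, and their order in a cluster follows both the time at which they are switched on and the position of their front border along the head-to-tail axis. Genes with low paralog numbers start in the hindbrain, those with high numbers in the trunk and tail. Cdx genes belong to the related ParaHox family, are active around the primitive streak and the tail bud, and activate Hox genes of the trunk. The midbrain and the neural crest that leaves it are known as territories without Hox expression.

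Tissue came from untreated wild-type chick embryos at 12 stages, HH5, HH6 and 1ss to 10ss (HH, Hamburger-Hamilton stage; ss, somites), and each library is a pool of several embryos. The stage that the labels call HH7 is named 1ss here. There were 4 libraries per stage except at 6ss, 8ss and 10ss, which had 3, and for most tests the stages were joined into HH5 (n = 4), HH6 (n = 4), HH7 (1ss to 3ss, n = 12), HH8 (4ss to 6ss, n = 11), HH9 (7ss to 9ss, n = 11) and HH10 (10ss, n = 3). Patches beside the primitive streak were cut at HH5 and HH6, plate borders or fold tips at the stages after that, and dorsal neural tube together with emigrating crest in the oldest embryos, so stage and the piece that was cut cannot be told apart. In pooled tissue, fewer cells that make a transcript and less transcript per cell cannot be told apart either.

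The 45 libraries held 15.4 to 30.5 M reads counted in genes (median 22.9 M). Levels are counts per M reads (CPM) of the library size scaled by the trimmed mean of M-values (TMM). They are not corrected for gene length, so the levels of different genes are not compared. Levels of 6 head and midbrain genes were read, which cannot verify the midbrain label, since no other axial level was sampled. Their summed level was 39.3 to 58.4 CPM at HH5 and 264 to 380 CPM at 10ss. From HH5 to HH10, 4 of the 6 rose, where 7.2% of all genes did. Among them was EN1, a gene of the midbrain and its border with the hindbrain, from 1.24 to 204 CPM. A library that stood apart was replicate 1 of HH6, in which all 12 of the 12 better measured Hox and Cdx genes had their highest value of that stage. In 1ss, replicate 1 was highest for 10 of the 12. Results that rest on these libraries are given with and without them.

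**Figure D1:**
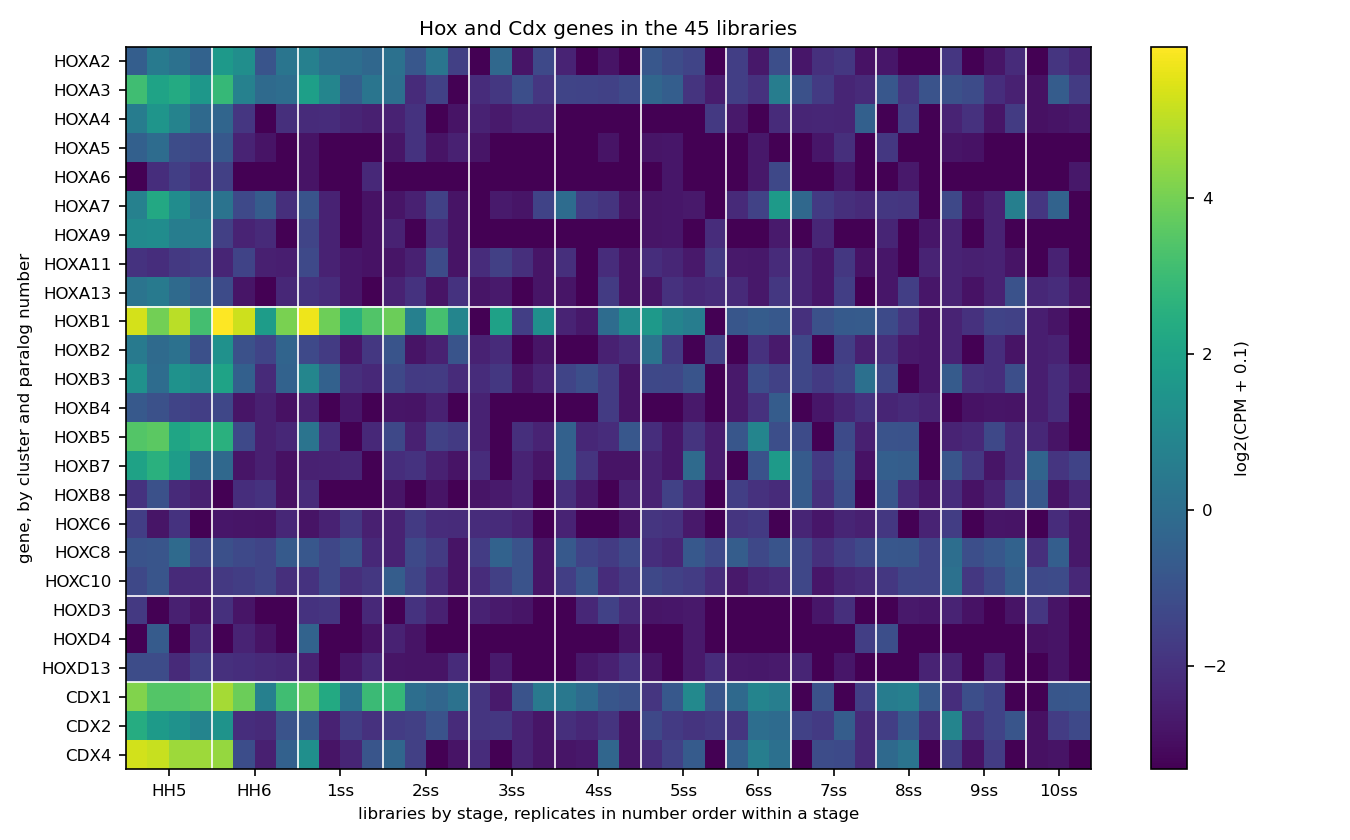
Level of 25 of the Hox and Cdx genes (rows, by cluster and paralog number) in each of the 45 libraries (columns, by stage), as log2(CPM + 0.1) on a colour scale. Bright cells lie mostly at HH5 to 2ss, among them those of HOXB1, CDX1 and CDX4, and the right part of the map, from 3ss on, holds few bright cells.

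The genes were most abundant at the start of the series. The highest stage mean fell at HH5 for 17 of the 26 genes and at HH6 for 3 (HOXA2, HOXB1 and HOXB2). The other 6 (HOXB8, HOXC6, HOXC8, HOXC10, HOXD3 and HOXD4) had their highest mean at a somite stage, none of them above 0.603 CPM. Of the 17 genes highest at HH5, HOXA6 and HOXD13 exceeded 5 reads only there, so they passed the filter through that stage alone. The summed level of all 26 genes was 101 ± 31.0 CPM at HH5, 60.4 ± 57.2 at HH6, 34.7 ± 31.2 at 1ss and 12.9 ± 10.3 at 2ss (SD, n = 4 each). It was 4.43 ± 2.35 CPM at 3ss (n = 4), and no stage from 4ss on had a mean above the 9.39 ± 5.13 CPM of 6ss (n = 3). In a test over the 12 stages, 17 of the 26 genes changed (edgeR's quasi-likelihood test, adjusted p below 0.05), where 43.7% of all genes tested did. These were 6 of the 7 anterior Hox genes, 6 of the 11 central ones, 2 of the 5 posterior ones and all 3 Cdx genes. By cluster they were 8 of 10 in HoxA, 6 of 7 in HoxB, 0 of 3 in HoxC and 0 of 3 in HoxD.

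Only 12 genes reached a mean of 1 CPM at any stage: HOXA2, HOXA3, HOXA4, HOXA7, HOXA9, HOXB1, HOXB3, HOXB5, HOXB7 and the 3 Cdx genes. No gene of HoxC or HoxD did. Among the other 14, the largest read number in a library was 51, for HOXB2.

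Of the anterior Hox genes, HOXB1, which acts in the hindbrain segment next to the ear and is first active in the primitive streak, was measured with the most reads. Its levels in replicates 1 to 4 were 40.2, 15.6, 31.4 and 8.86 CPM at HH5, 60.8, 37.7, 3.36 and 16.7 CPM at HH6, and 51.9, 14.8, 5.69 and 10.5 CPM at 1ss. The 3 stages overlapped, and replicate 1 was the highest of each. At 2ss the libraries held 14.3, 1.54, 9.11 and 1.77 CPM, and at 3ss 0, 3.84, 0.228 and 2.32 CPM. From HH5 to HH6 the level of HOXB1 differed by less than its spread (log2 fold change 0.30 ± 0.91 SE, adjusted p = 0.936, edgeR). HOXA2, a gene of the second pharyngeal arch and of the hindbrain, held 0.572, 1.31, 1.00 and 0.643 CPM at HH5 and 3.11, 2.28, 0.425 and 1.11 CPM at HH6, so its stages overlapped as well (0.97 ± 0.83 SE, adjusted p = 0.68). HOXA3, a gene of the third arch and the hindbrain, had stage means of 5.09, 2.62 and 1.79 CPM at HH5, HH6 and 1ss and 0.329 CPM at 2ss, and HOXB3 of 1.97, 1.35, 0.664 and 0.206 CPM. In the annotation used here for names, HOXA3 overlaps HOXA4, HOXA5 and HOXA6, HOXB3 overlaps HOXB4, HOXB5 and HOXB6, HOXB5 also overlaps HOXB6, HOXA9 overlaps HOXA10, and HOXD3 overlaps HOXD4, so how their reads were divided is uncertain.

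Of the central and posterior Hox genes, HOXB5, a gene of the neck and trunk, held 10.8, 12.2, 4.24 and 5.34 CPM in the HH5 libraries and 5.69, 0.307, 0.077 and 0.104 CPM in those of HH6. HOXB7, a trunk gene, held 3.89, 5.75, 3.35 and 0.795 CPM at HH5 and 0.765, 0.044, 0.077 and 0.035 CPM at HH6. HOXA9, a gene of the posterior trunk, held 2.06, 2.13, 1.43 and 1.40 CPM at HH5 and 0.239, 0.088, 0.116 and 0 CPM at HH6. HOXB7 and HOXA9 did not overlap between the 2 stages, while HOXB5 did through replicate 1 of HH6. HOXA4 had means of 1.63 and 0.258 CPM (adjusted p = 0.101, edgeR) and HOXA7 of 2.37 and 0.510 CPM (adjusted p = 0.351), neither of them called. The libraries of the 2 stages did not overlap for HOXA4 and HOXA7, nor for HOXA13 and CDX4. The share of all genes without overlap in this step is not given here, so the lack of overlap is a description only.

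CDX4, which is active in the streak and tail bud, held 39.3, 35.3, 23.8 and 23.7 CPM at HH5 and 22.1, 0.351, 0.077 and 0.624 CPM at HH6. CDX2, known from the tail bud and later from the gut, held 5.23, 3.22, 2.54 and 1.70 CPM at HH5 and 2.58, 0.132, 0.116 and 0.416 CPM at HH6. In CDX1, which is active in the streak and the posterior neural plate, the values were 17.8, 10.8, 10.8 and 11.997 CPM at HH5 and 25.6, 14.4, 1.55 and 8.46 CPM at HH6. Replicate 1 of HH6 thus lay just under the range of HH5 for CDX4 and within it for CDX2, the other 3 libraries of HH6 lay below HH5 for both genes, and the HH6 libraries of CDX1 lay both above and below those of HH5. The mean of CDX1 was 6.66 CPM at 1ss, 2.42 CPM at 2ss and 0.471 CPM at 3ss.

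**Figure D2:**
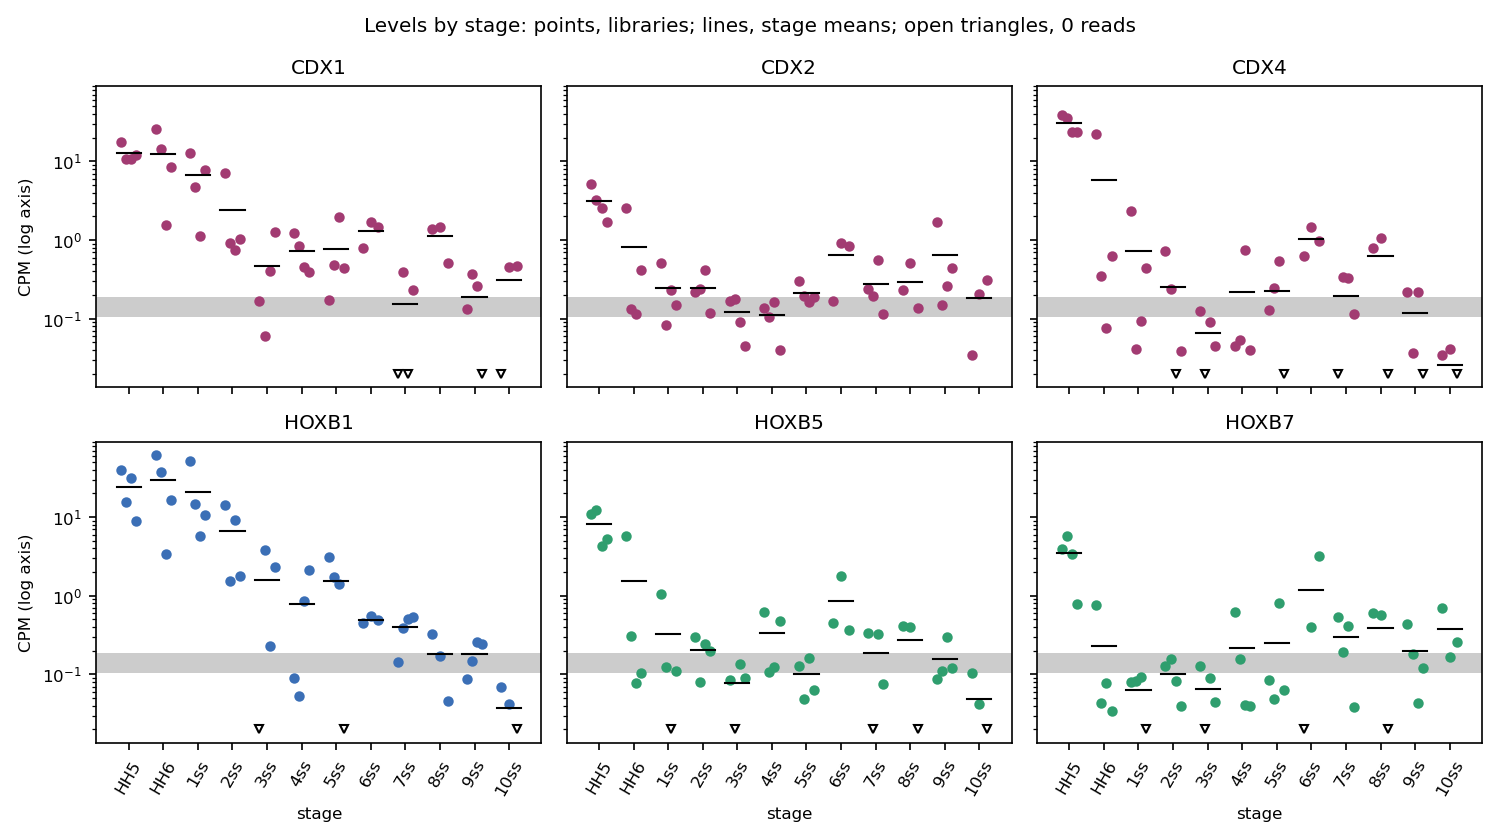
CPM on a log axis by stage for CDX1, CDX2, CDX4, HOXB1, HOXB5 and HOXB7, with a point per library, a line at the stage mean, open triangles for libraries with 0 reads and a grey band where 3 reads lie (0.104 to 0.189 CPM, depending on the library). CDX2, CDX4, HOXB5 and HOXB7 are at 0.624 CPM or less by HH6 in all libraries but replicate 1, while CDX1 and HOXB1 stay at 0.738 CPM or more up to 2ss.

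From HH5 to HH6, 2 of the 26 genes fell and 0 rose (edgeR, adjusted p below 0.05 over all genes and a log2 fold change beyond 0.75), where 0.669% of all genes tested fell and 0.626% rose. They were HOXA9 (log2 fold change -3.97 ± 0.99 SE, adjusted p = 0.023) and HOXB7 (-3.93 ± 1.07 SE, adjusted p = 0.042). The median log2 fold change was -0.10 for the anterior Hox genes, -1.82 for the central ones, -1.03 for the posterior ones and -1.98 for the Cdx genes, against 0.005 for all genes. The Hox classes include genes near 3 reads per library at both stages. The posterior median was the value of HOXD13, with 3 to 9 reads at HH5 and 3 in each HH6 library. Without replicate 1 of HH6, 7 genes fell, where 1.49% of all genes did: HOXA4, HOXA9, HOXA13, HOXB5, HOXB7, CDX2 and CDX4. The log2 fold changes were then -6.42 ± 1.25 SE for CDX4 (adjusted p = 0.0014), -5.64 ± 1.09 SE for HOXB5 (adjusted p = 0.0014) and -3.80 ± 0.87 SE for CDX2 (adjusted p = 0.0067), and 0 of the 7 anterior genes were called. These are fitted values, since 2 of the 3 libraries held at most 3 reads of HOXB5 and of CDX2 and 1 of the 3 did of CDX4. HOXB7 and HOXA9 had at most 3 reads in all 3, and against 3 reads in each library the mean of HH5 was at least 29.4-fold higher for HOXB7 and 15.0-fold higher for HOXA9. CDX1 stood at -0.67 ± 1.00 SE (adjusted p = 0.813) in that fit. Without replicate 2, 3 or 4 of HH6, or replicate 1 or 2 of HH5, the count was 0, and without replicate 3 of HH5 it was 1. For these fits the share of all genes called is not given here, and whether fewer genes were called in general was not tested.

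Because replicate 1 of HH6 was high in every well measured gene of the family, pairs of genes were also compared within each library, where depth and gene length cancel between the stages. The pairs were picked after their values had been seen, so they are given as a description, with no test. The log2 ratio of CDX4 to CDX1 was 1.14, 1.72, 1.14 and 0.98 in the HH5 libraries and -0.21, -5.36, -4.32 and -3.76 in those of HH6. It did not overlap between the stages, and replicate 1 of HH6 was again the nearest to HH5. In HH6 the first gene of a pair had at most 3 reads in 1 library for CDX4, 2 for CDX2, 2 for HOXB5 and 3 for HOXB7. With such libraries set to 3 reads, the mean log2 ratio of HH6 minus that of HH5 was -4.51 or lower for CDX4 to CDX1, -2.44 for CDX2 to CDX1, -4.17 for HOXB5 to HOXB1 and -3.78 for HOXB7 to HOXB1. All 4 ratios, set in this way, were lower in 4 of 4 HH6 libraries than in any HH5 library. Without replicate 1 of HH6 the mean differences were -5.53, -2.85, -4.90 and -3.90. The pairs share CDX1 or HOXB1 as the second gene and use the same libraries, so they are not separate observations.

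**Figure D3:**
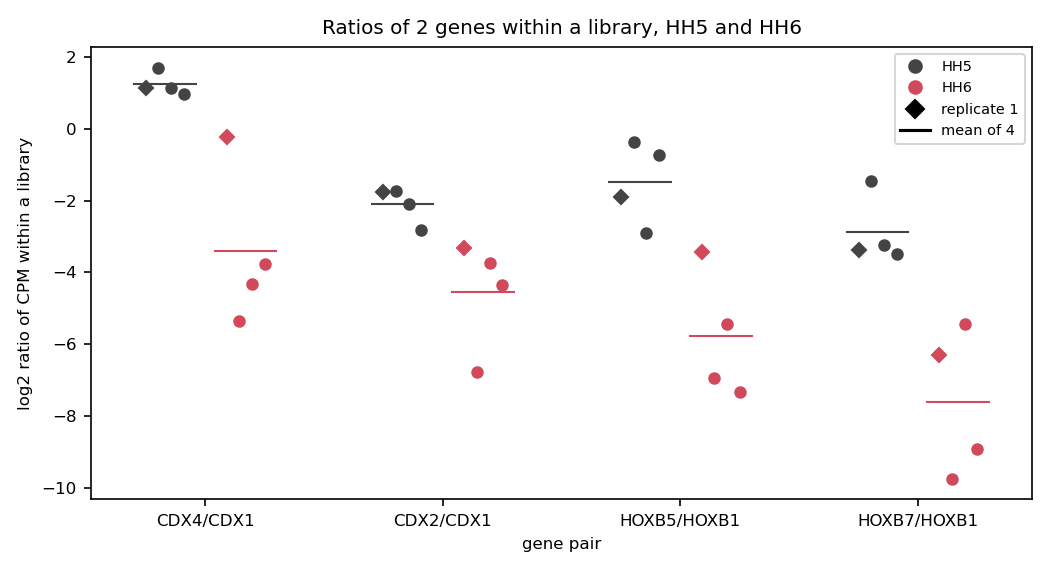
Log2 ratio of the CPM of 2 genes within each library (vertical axis) for 4 gene pairs at HH5 (dark) and HH6 (red), with diamonds for replicate 1, circles for replicates 2 to 4 and lines at the means of 4 libraries. In each pair the HH6 points lie below all HH5 points, and 1 to 3 of the 4 HH6 points of a pair rest on at most 3 reads of the first gene.

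Markers of neighbouring tissues were read in the same libraries. The summed level of 5 endoderm genes was 81.5 to 121 CPM at HH5 and 22.2 to 63.9 CPM at HH6. The 63.9 CPM were in replicate 1 of HH6, and 1 of the 5 genes fell from HH5 to HH6. Of all genes, 0.669% fell and 0.626% rose in that step. The sum of 9 primitive streak and mesoderm genes was 166 to 365 CPM at HH5 and 311 to 435 CPM at HH6, with 0 of 9 called, and that of 6 epidermis genes was 906 to 1477 CPM and 511 to 1129 CPM, with 0 of 6 called and 1129 CPM in replicate 1. From HH5 to HH6 the median log2 fold change was -0.96 for the 9 streak and mesoderm genes and -0.93 for the 6 epidermis genes. The sum of the streak and mesoderm genes thus did not follow their median. The sum of 4 notochord and midline genes was 39.1 to 61.5 CPM at HH5 and 15.4 to 27.9 CPM at HH6, with 0 of 4 called. At 10ss the sums were 3.18 to 6.09 CPM for endoderm and 33.8 to 112 CPM for streak and mesoderm. They were 94.0 to 168 CPM for epidermis and 6.97 to 8.87 CPM for the midline. In this order, 5 of 5, 8 of 9, 6 of 6 and 2 of 4 genes fell from HH5 to HH10, where 9.8% of all genes did. The sum of 4 blood vessel genes was 20.1 to 31.6 CPM at HH5, 30.3 to 55.7 CPM at HH6 and 24.9 to 50.2 CPM at 10ss. The 55.7 CPM were in replicate 1 of HH6. Of these 4 genes, 1 fell from HH5 to HH6 (0.669% of all genes) and 2 rose from HH5 to HH10 (7.2% of all genes). No gene of these lists had a mean of 0 at HH5 or 10ss. FOXA2 is in both the endoderm and the midline list. The sum of 5 hindbrain regulator genes was 72.3 to 84.4 CPM at HH5, 36.6 to 86.0 CPM at HH6 and 27.4 to 48.2 CPM at 10ss. Of these 5, 0 were called from HH5 to HH6 and 2 fell from HH5 to HH10 (9.8% of all genes). The part of any of these tissues in the levels of Hox and Cdx genes was not tested.

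From HH6 to HH7, HOXB5 (log2 fold change -2.84 ± 0.72 SE, adjusted p = 0.031) and CDX4 (-3.98 ± 0.79 SE, adjusted p = 0.0051) fell, 2 of the 26 genes where 0.918% of all genes fell, and 0 rose (0.103% of all genes). Both calls rested on replicate 1 of HH6, without which the values were 0.39 ± 0.90 SE for HOXB5 (adjusted p = 0.91) and 0.038 ± 0.97 SE for CDX4 (adjusted p = 0.992). Without replicate 1 of 1ss, 6 genes fell, where 1.06% of all genes did, with HOXA3, HOXB1, HOXB3 and CDX1 in addition. With a replicate block, CDX4 fell (-3.34 ± 0.78 SE, adjusted p = 0.015) and HOXB5 was not called (adjusted p = 0.077).

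The next step included falls of anterior Hox genes and of CDX1. From HH7 to HH8, 4 of the 26 genes fell, where 2.83% of all genes did. Among them were HOXB1 (log2 fold change -3.26 ± 0.63 SE, adjusted p = 0.00025), HOXA2 (-1.98 ± 0.56 SE, adjusted p = 0.012) and CDX1 (-1.84 ± 0.60 SE, adjusted p = 0.03). HOXB1 had a lowest, median and highest value of 0, 4.77 and 51.9 CPM over the 12 libraries of HH7 and of 0, 0.552 and 3.10 CPM over the 11 of HH8, and CDX1 of 0.06, 1.07 and 12.9 CPM and of 0.172, 0.791 and 1.94 CPM. The groups overlapped. HH7 joins 1ss, where the means were 20.7 CPM for HOXB1 and 6.66 CPM for CDX1, with 3ss, where they were 1.60 and 0.471 CPM. The calls of HOXB1 and HOXA2 held when any single library was left out. The call of CDX1 was lost without any 1 of 5 libraries (1ss replicates 1 and 4, 2ss replicate 1, and 5ss replicates 1 and 2; highest adjusted p = 0.106).

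HOXB7 rose from HH7 to HH8 (log2 fold change 2.54 ± 0.69 SE, adjusted p = 0.0085), 1 of the 26 genes where 4.5% of all genes rose. This call rested on replicate 3 of 6ss, in which HOXB7 and HOXA7 each had 52 reads or 3.16 CPM, while the other 6ss libraries held 0 and 0.402 CPM of HOXB7 and 0.113 and 0.251 CPM of HOXA7. Without that library HOXB7 stood at 1.47 (adjusted p = 0.117). At 6ss the stage means of CDX1, CDX2, CDX4, HOXB5, HOXB7 and HOXA7 were 1.32, 0.641, 1.02, 0.858, 1.19 and 1.17 CPM and were above those of 5ss and 7ss. Of the other better measured genes, HOXA3 was also higher at 6ss (0.591 CPM) than at 5ss and 7ss (0.386 and 0.197 CPM). HOXA2, HOXA9, HOXB1 and HOXB3 were lower at 6ss than at 5ss, HOXB1 with 0.497 against 1.55 CPM, and HOXA4 was lower than at 7ss. None of the 26 genes was called from 5ss to 6ss or from 6ss to 7ss.

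In HH9, HOXA4 was higher than in HH8 (log2 fold change 2.18 ± 0.69 SE, adjusted p = 0.025), 1 gene of the 26 where 3.5% of all genes rose, while 0 fell (3.57% of all genes). Its reads in a library numbered 0 to 3 in HH8 and 0 to 16 in HH9, with the 16 in replicate 4 of 7ss, and without that library the value was 1.62 (adjusted p = 0.099). From HH9 to HH10, 0 of the 26 genes were called by edgeR, where 0.135% of all genes fell and 0.194% rose. By DESeq2 0 were called, where 87 of 18525 genes fell and 42 rose. Unadjusted, 0 of the 26 had a p below 0.05 (edgeR), where 1057 of all genes were lower and 943 higher. Between single consecutive stages, only the step from HH5 to HH6 gave calls (HOXA9, HOXA13 and HOXB7, all lower, where 1.02% of all genes fell and 0.901% rose). HOXA13, a gene of the hindmost axis, was at -2.94 ± 0.85 SE there (adjusted p = 0.047), a call lost without any 1 of 11 libraries, and those of HOXA9 and HOXB7 were lost without 1 of 3 and of 5 libraries of HH5 or HH6. In the 10 later steps 0 of the 26 genes were called by edgeR, where 0.0583% of all tests gave a fall and 0.041% a rise. Unadjusted, 28 of 260 tests of the 26 genes had a p below 0.05 by edgeR (20 lower and 8 higher). Such unadjusted values were common over all 18525 genes too. They were fewest from 1ss to 2ss (177 lower and 155 higher) and most frequent from 8ss to 9ss (1409 lower and 1233 higher). Their share over the 10 steps together is not given here, and the 28 tests are not read as a trait of the 26 genes. A comparison added after the data had been seen, 3ss with 1ss, gave 1 gene, CDX1 (log2 fold change -3.77 ± 0.86 SE, adjusted p = 0.04, edgeR), where 0.13% of all genes fell and 0.0972% rose. This call was lost without any 1 of 5 libraries (replicates 1 and 4 of 1ss and replicates 1, 2 and 3 of 3ss), and also with a replicate block (adjusted p = 0.051).

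Between HH5 and HH10, the ends of the series, 16 of the 26 genes fell and 0 rose, where 9.8% of all genes fell and 7.2% rose. The median log2 fold change was -3.51 for the 26 genes and -0.07 for all genes. Among the anterior Hox genes 6 of 7 fell, among the central ones 4 of 11, among the posterior ones 3 of 5 and among the Cdx genes 3 of 3, with medians of -3.89, -2.71, -3.22 and -5.42. By cluster, 7 of 10 fell in HoxA, 5 of 7 in HoxB, 0 of 3 in HoxC and 1 of 3 in HoxD. The HoxD gene was HOXD13. Like HOXA6 and HOXC6, it exceeded 5 reads only in libraries of HH5 and so passed the filter through that stage alone. A fall of such a gene from HH5 is favoured by the filter. CDX1 went to 0, 0.460 and 0.466 CPM in the 3 libraries of 10ss (-5.42 ± 1.32 SE, adjusted p = 0.002), and CDX2 to 0.035, 0.209 and 0.311 CPM (-4.12 ± 0.99 SE, adjusted p = 0.0016). HOXA3 stood at 0.035, 0.544 and 0.207 CPM there (-4.27 ± 1.08 SE, adjusted p = 0.003). All these values lay below every HH5 library of the same gene. The 10 genes that were not called had log2 fold changes from -3.03 (HOXA7, adjusted p = 0.083) to 0.23 (HOXB8).

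Several genes had at most 3 reads in each library of 10ss, which counts here as not detectable, and for these the fall is given as a bound. Against 3 reads in each library, the mean of HH5 was at least 63.4-fold higher for HOXB5, 15.3-fold for HOXB3, 13.7-fold for HOXA9 and 12.7-fold for HOXA4. HOXA9 had 0 reads in all 3 libraries. The values left at 10ss were 0.035, 0.042 and 0 CPM for CDX4 and 0.070, 0.042 and 0 CPM for HOXB1. The calls of HOXA2, HOXA13, HOXB2, HOXB7 and HOXD13 were lost when some single library was left out. Against 16 genes in the main fit, 11 were called without replicate 3 of 10ss and 13 without replicate 1 of 10ss. The shares of all genes called in those fits are not given here. HOXB7 stood at 0.697, 0.167 and 0.259 CPM at 10ss (-3.16 ± 1.14 SE, adjusted p = 0.04), below the lowest HH5 library at 0.795 CPM.

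**Figure D4:**
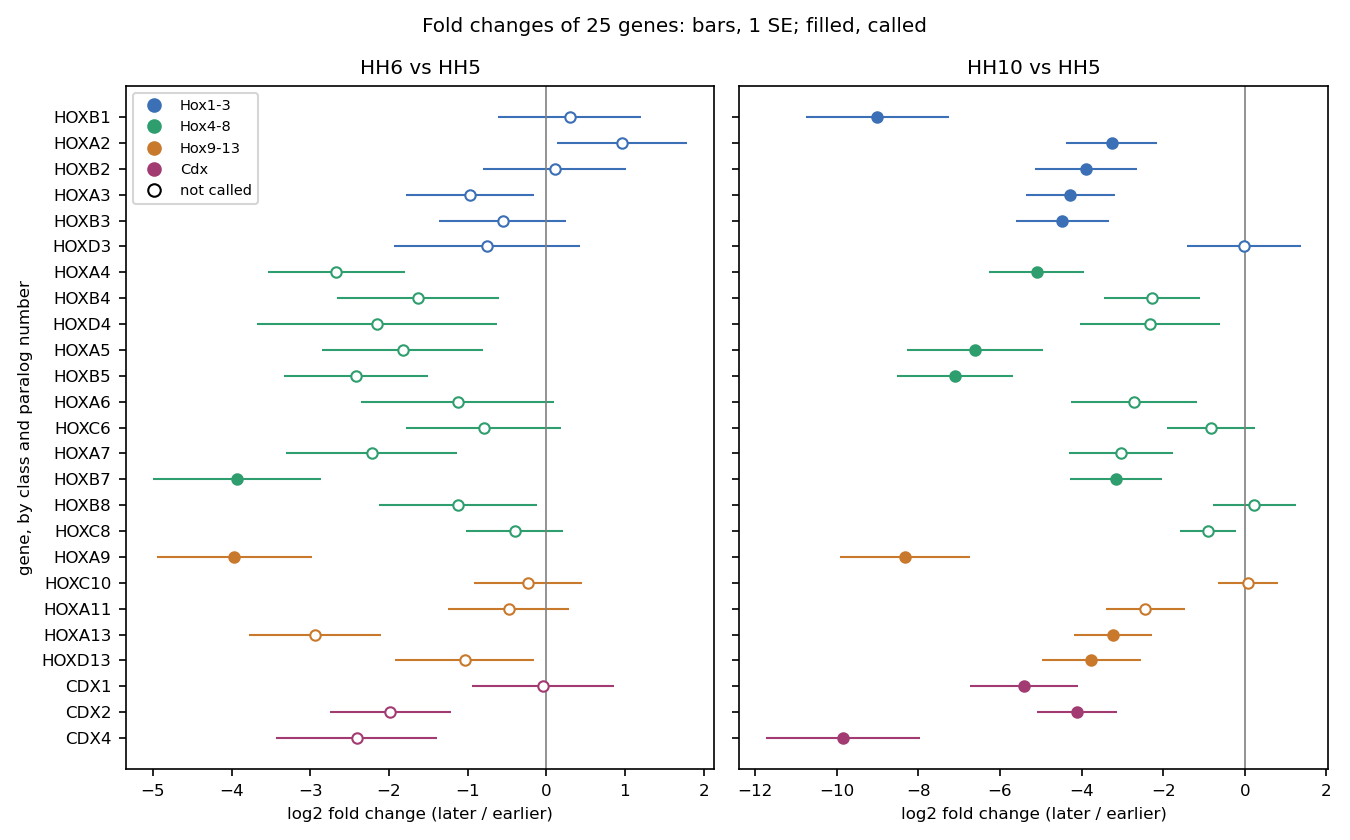
Log2 fold change with its standard error for 25 of the genes, by class and paralog number, from HH5 to HH6 (left) and from HH5 to HH10 (right), with filled points for genes that were called. On the left only HOXB7 and HOXA9 are filled, and on the right 15 of those shown are filled, all below 0; points of genes with at most 3 reads at 10ss are fitted values, not bounds.

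Late in the series few of the genes were detectable. More than 3 reads, the limit of detection used, were found in all 4 HH5 libraries for 18 of the 26 genes and for 76.5% of all genes tested. The number of the 26 over the limit in every library of a stage was 9 at HH6, 5 at 1ss, 4 at 2ss and 0 at 3ss. At 4ss to 10ss the number was 1 to 5. The shares of all genes for the single stages from HH6 on are not given here. In the 10 libraries of 8ss, 9ss and 10ss, 0 of the 26 genes were over the limit in all 10 libraries, as against 67.2% of all genes tested. Over the limit in 5 or more of the 10 were 7 genes (81.2% of all genes), and in none of the 10 were 6 genes (4.99% of all genes).

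The 7 genes detectable in at least 5 late libraries were HOXC8 and HOXC10 (9 of 10 each), CDX2 (8), CDX1 and HOXB7 (7 each), HOXA3 (6) and HOXA7 (5). HOXC8 and HOXC10, which act in the trunk and at the level of the hindlimb, were never abundant: over the 45 libraries HOXC8 had 1 to 21 reads and HOXC10 1 to 23. From HH5 to HH10 HOXC8 stood at -0.90 ± 0.69 SE (adjusted p = 0.389) and HOXC10 at 0.07 ± 0.73 SE (adjusted p = 0.961), and neither was called. CDX2 had 1 to 39 reads in the late libraries with a median of 5.5, CDX1 0 to 30 with a median of 9.5 and HOXB7 0 to 20 with a median of 5. Single libraries made up the upper ends of these ranges, replicate 1 of 9ss for CDX2 (39 reads) and replicates 1 and 2 of 8ss for CDX1 (30 and 26 reads).

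The 6 genes at 3 reads or fewer in every late library were HOXA6, HOXA9, HOXA11, HOXB2, HOXB4 and HOXD13. Of these, HOXA6 and HOXD13 had passed the filter only through libraries of HH5. CDX4 was over the limit in 4 of the 10, with 17 and 19 reads in replicates 1 and 2 of 8ss and at most 5 elsewhere, and HOXB1 in 4 of the 10, with at most 7 reads. With at least 1 read as the limit, 21 genes were detectable in 5 or more late libraries, and with more than 10 reads 0 were. The shares of all genes at these other limits are not given here, so these counts show only how the number depends on the limit.

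**Figure D5:**
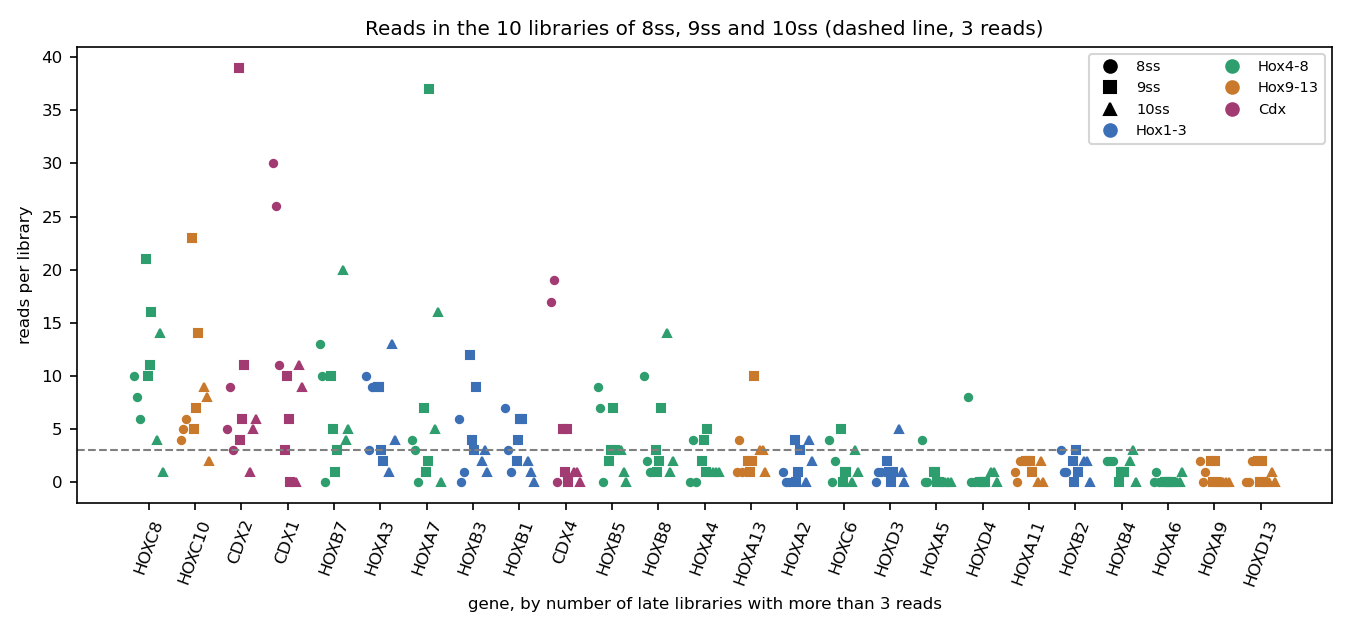
Reads per library (vertical axis) for 25 of the genes in the 10 libraries of 8ss (circles), 9ss (squares) and 10ss (triangles), coloured by class, with genes ordered by how many of the 10 libraries held more than 3 reads (dashed line). HOXC8 and HOXC10 lie above the line in 9 libraries each, and the 6 genes at the right never exceed it.

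Genes known to act with or upstream of Hox and Cdx genes were counted from fixed lists. Of 7 Hox cofactors measured (homeodomain proteins of the PBX, MEIS and PKNOX families that bind DNA together with Hox proteins), 6 changed over the 12 stages, where 43.7% of all genes did. From HH5 to HH6, 0 were called. From HH7 to HH8, 2 fell (2.83% of all genes), MEIS1 (log2 fold change -0.94 ± 0.24 SE, adjusted p = 0.0053, edgeR) and MEIS2 (-1.10 ± 0.19 SE, adjusted p = 4.4e-05), and from HH8 to HH9 MEIS1 rose (1.41 ± 0.25 SE, adjusted p = 6.1e-05), where 3.5% of all genes did. From HH5 to HH10, 1 of the 7 fell (9.8% of all genes), MEIS2, from a mean of 373 to 117 CPM (-1.68 ± 0.36 SE, adjusted p = 0.00043). Of 15 genes for signals and factors that induce Hox and Cdx genes, 0 were called from HH5 to HH6, 9 from HH7 to HH8 (2 higher and 7 lower, where 4.5% and 2.83% of all genes were), 6 from HH8 to HH9 (4 higher and 2 lower, where 3.5% and 3.57% were) and 6 from HH5 to HH10 (1 higher and 5 lower, where 7.2% and 9.8% were). WNT8A, a Wnt ligand of the streak, fell from 7.02 to 0.1498 CPM from HH5 to HH10 (-5.66 ± 1.25 SE, adjusted p = 0.00068), and ALDH1A2, which makes retinoic acid, from 26.6 to 3.47 CPM (-2.93 ± 0.94 SE, adjusted p = 0.02). WNT3A, the other way round, rose from 17.2 to 173 CPM (3.32 ± 0.89 SE, adjusted p = 0.0047). CYP26A1, which breaks retinoic acid down, had means of 78.3 CPM at HH5, 319 CPM at 2ss and 7.29 CPM at 10ss.

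Of 9 genes measured that lie beside the Hox clusters without being Hox genes, 3 fell from HH5 to HH10 (9.8% of all genes did): EVX1, at the end of the HoxA cluster and active in the streak (-4.64 ± 1.14 SE, adjusted p = 0.0023), SKAP1, beside HoxB (-6.18 ± 1.40 SE, adjusted p = 0.00086), and SKAP2, beside HoxA (-1.24 ± 0.24 SE, adjusted p = 0.00015). The median of the 9 was -0.08 and that of all genes -0.07.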

How the data were processed

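Bulk RNA was sequenced from 45 libraries (Nextera XT, a kit that does not keep strand) of wild-type chick tissue. The authors mapped the reads with STAR (2.7.2a in the submitters' processing notes) to GRCg6a and deposited read counts per gene. The annotation release is not given in the sources used here. A further deposited signal table holds these counts per M reads after edgeR's TMM scaling by the authors, and its values were the same as those computed here from the counts. Of 24356 genes, 18525 exceeded 5 reads in some library and were tested. The counted totals are lower than the read depth given in the methods, for a reason not given in the sources used here.

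Counts were fitted in R 4.3.3 with edgeR 4.0.16 (quasi-likelihood test, TMM, all 45 libraries) over 6 groups and, in a second fit, over 12 stages. Calls needed an adjusted p (Benjamini-Hochberg, over all genes tested) under 0.05 together with a log2 fold change beyond 0.75 in either direction. The test over 12 stages had no fold threshold. Standard errors (SE) were calculated back from the test, as the absolute log2 fold change divided by the square root of its F statistic. For genes of few reads they are approximate. A gene was detectable with more than 3 reads in a library, which is 0.104 to 0.189 CPM and covers counting error only. Alternatives were DESeq2 1.42.0, other scalings and filters, the replicate number as a block, and each library left out. Replicates are numbered as in the sample titles. For 10ss the deposited columns carry other numbers, 1, 3 and 4, for replicates 1, 2 and 3. The block, the setting with libraries 1 to 3 and the same-numbered pairs used the title numbers, so their match at 10ss is uncertain. The scripts were tested on simulated data. The labels give pools of embryos but do not tie a number to a shared batch, so p-values measure the spread between these pools. All 63 pairs of libraries within a stage differed by more than sampling noise (chi-square per degree of freedom 22.2 to 153).

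The genes and lists were chosen with earlier results of these data known. Genes with a mean of at least 1 CPM at a stage are described by stage. Other members were named after their values had been seen. Of the 26 genes, 25 matched RefSeq (GRCg7b), used for names and overlaps only. Listed genes without a match (6 entries) were not analysed here. Some genes are not reported here by name, although counts over the 26 genes include every member.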

Additional observations from a re-analysis of the deposited data

Results flagged for a closer look

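In stages of 4 libraries, 17 of 117 values tested lay far from the others of their stage, with a gap to the nearest library of more than 0.829 of the whole range (Dixon's limit for 4 libraries). The limit is passed in about 1 in 20 groups of independent, normally distributed values. The values here are CPM, often of few reads, and the genes share libraries, so that rate need not hold. For 3 of the 17 the library concerned held at most 3 reads.

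Replicate 1 of HH6 gave 6 of these values, all high. HOXA3 stood at 7.17 CPM there (0.811 to 1.58 CPM in the other 3 libraries), HOXB3 at 4.01 CPM (0.116 to 0.659) and HOXB5 at 5.69 CPM (0.0773 to 0.307). HOXB7 was at 0.765 CPM (0.0347 to 0.0773), CDX2 at 2.58 CPM (0.116 to 0.416) and CDX4 at 22.1 CPM (0.0773 to 0.624). The same library held the highest summed endoderm, epidermis, midline and blood vessel markers of its stage. The endoderm and midline sums share FOXA2 and are not separate observations. The part of these markers' tissues in the values was not tested.

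Another pair of libraries, both replicate 1 of their stage, were high in a gene of the trunk or the streak. HOXB5 was at 1.07 CPM in replicate 1 of 1ss (0 to 0.125 CPM in the others), and CDX1 at 7.01 CPM in replicate 1 of 2ss (0.738 to 1.02 CPM). In replicate 4 of 1ss HOXB7 was at 0 CPM, the only low value (0.0790 to 0.0925 CPM in the others).

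At later stages the values rested on few reads. CDX4 stood at 0.740 CPM in replicate 3 of 4ss (0.0396 to 0.0531 CPM in the others) and HOXB7 at 0.806 CPM in replicate 3 of 5ss (0.0489 to 0.0861). HOXA4 was at 0.189 CPM in replicate 4 of 5ss, which is 3 reads against 0 in the others. In 7ss, replicate 4 held 0.614 CPM of HOXA4 (16 reads; 0.0931 to 0.0975 CPM in the others) and 0.959 CPM of HOXB3 (25 reads; 0.195 to 0.289). Replicate 1 of 7ss held 0.772 CPM of HOXA7 (0.115 to 0.195) and replicate 2 held 0.0975 CPM of HOXA9, 2 reads against 0 in the others. In replicate 3 of 9ss HOXB5 stood at 0.303 CPM (0.0875 to 0.121).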

How the results depend on the processing

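Of 30 calls of single genes, 206 of 218 repeats under other settings (apart from leaving out a library) kept the direction and the call, 12 kept the direction only and 0 reversed. Leaving out each library in turn gave 1350 repeats, of which 1291 kept the call, 57 lost it and 2 reversed. The reversals were HOXB5 and CDX4 from HH6 to HH7, which ranged from -3.52 to 0.39 and from -5.00 to 0.038 on the log2 scale, the upper ends being without replicate 1 of HH6. The number of genes called from HH5 to HH6 (2) was 5 with a replicate block, 0 with libraries numbered 1 to 3 only, 1 by DESeq2, and 0 to 7 with a library left out. Of all genes, 1.01% fell with the block, 0.18% with libraries 1 to 3 and 1.24% by DESeq2, against 0.669% in the main fit. From HH6 to HH7 (2) the number called was 8 with 12 stages in the fit, 1 with the replicate block, with libraries 1 to 3 or with only the compared groups, and 0 to 6 with a library left out. Of all genes, 1.21% fell with the block and 0.333% with libraries 1 to 3, against 0.918% in the main fit. From HH8 to HH9 (1) the number called was 0 with libraries 1 to 3, 2 by DESeq2 and 0 to 2 with a library left out. With libraries 1 to 3, 516 of all 18305 genes tested rose and 567 fell. By DESeq2, 645 of 18525 rose and 662 fell. Over single steps (3) the number of Hox and Cdx genes called was 6 with the replicate block and 0 to 7 with a library left out. From 1ss to 3ss (1, added after seeing the data) it was 2 with all genes that have a read, 0 with the replicate block and 0 to 2 with a library left out. The shares of all genes under the remaining settings are not given in this paragraph. Counts from HH7 to HH8, from HH5 to HH10 and over 12 stages stayed within 1.5 times under settings other than leaving out a library. Late detectable genes (7) numbered 21 with at least 1 read, 0 with more than 10 reads, 0 with at least 0.5 CPM and 6 at the lowest depth. The replicate numbers were not taken as pairs in the main fits. Of 39 same-numbered pairs of consecutive stages, 11 had a correlation of deviations over 0.1 (-0.11 to 0.26). These included all 6 pairs of number 4, which run from HH5 to 5ss (0.12 to 0.26). Number 1 had 2 such pairs of 11, number 2 had 1 and number 3 had 2. The main fits make no allowance for what libraries of number 4 may share. The cause of the shifts in the counts of calls was not tested, and genes near 3 reads per library are limited by depth.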

Other observations

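A gene without a symbol, which the deposited annotation describes as similar to CDX-1, was not among the 26 genes. It held 48, 33, 17 and 29 reads in the HH5 libraries, 26 reads in replicate 1 of HH6, and at most 6 reads in any other library.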
